A study of Mus musculus with 6 samples.

Results

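The connexins and pannexins are families of large-pore channel proteins, and 8 of their genes, Gja1, Gja4, Gjb2, Gjb6, Gjc1, Panx1, Panx2 and Panx3, were followed here in bone-forming and cartilage cells of the newborn mouse. They were chosen by gene symbol, as 5 connexins and all 3 pannexins, out of the 23364 symbols of the table. The table holds 20 connexin symbols, so 15 connexins outside the chosen set were used for comparison. RNA-seq had been made from 3 libraries of osteoblasts and 3 of chondrocytes of C57BL/6 mice at postnatal day 1. The osteoblasts came from calvaria, the bones of the skull roof, were freed with Liberase TM, were sorted for green fluorescent protein and have the genotype label "Sp7 positive" and the description Sp7-GFP. The chondrocytes came from rib cartilage, were freed with Pronase and Collagenase D and carry the genotype label "WT". The labels do not describe the fluorescent allele further, and mention a sort for the osteoblasts and not for the chondrocytes. Cell type, site, genotype label, sorting and enzyme all change together between the groups, so that their parts in any difference cannot be told apart. Nothing in the labels says that replicates came from separate animals, and p-values then measure only the spread between these libraries.

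Connexins dock between neighbouring cells to form gap junctions, through which ions and small signals pass directly. Pannexins are built in a similar way but act mainly as channels of a single cell, and are best known for letting ATP out. The connexin of Gja1, Cx43, is the main gap junction protein of osteoblasts and osteocytes, and Panx3 is known from cartilage and bone. ATP that leaves through such pores acts on purine receptors of nearby cells and is broken down by enzymes at the cell surface.

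Expression was given as RPKM, in which the reads of a transcript are divided by its length and by the depth of the library. This allows levels of different genes to be set side by side. Estimated totals were 27020000 to 35920000 reads per library, at which 1 RPKM in a 2 kb transcript stood for 54.0 to 71.8 reads. Each log2 difference is the osteoblast mean of log2(RPKM + 1) less the chondrocyte mean, a measure that is too small for genes near or below 1 RPKM, whereas folds are ratios of mean RPKM. Genes were tested only if at least 3 of the 6 libraries had at least 1 RPKM. All 7 osteoblast markers were called higher in the osteoblast libraries and all 9 chondrocyte markers higher in the chondrocyte libraries. Bglap reached 1 RPKM in osteoblasts alone, and Matn1 and Matn3 in chondrocytes alone, so each could be tested only by being higher there. The osteoblast factor Sp7 stood at 115, 108 and 134 RPKM in osteoblast replicates 1 to 3, and at 0.911, 2.31 and 1.10 RPKM in chondrocyte replicates 1 to 3. Lists of other cells were counted too, beside 55.5% of all tested genes called higher in osteoblasts and 13.5% in chondrocytes. All 5 tested of 7 myeloid and osteoclast markers in the table were higher in osteoblasts, with sums of 21.8 to 28.0 RPKM against 2.997 to 7.886 RPKM in chondrocytes, and so were 3 of 5 tested smooth muscle and pericyte markers, with list sums of 153 to 199 RPKM against 75.8 to 115 RPKM. Cspg4, 1 of those 5, was higher in chondrocytes, at 85.8 against 31.9 RPKM (log2 difference -1.38, limma adjusted p = 0.000616), and made up most of their sum. All 4 tested of 6 osteocyte markers were higher in osteoblasts as well, with sums of 123 to 203 RPKM against 9.20 to 13.4 RPKM. Some of these calls were fixed by the filter, for genes that reached 1 RPKM in no chondrocyte library. They were 3 osteocyte markers (Dmp1, Phex and Sost), 2 myeloid ones (Cd68 and Mmp9) and 2 smooth muscle and pericyte ones (Cnn1 and Kcnj8). The smooth muscle and pericyte count of 3 of 5 also lies near the share over all tested genes. The part of such cells in the differences of the connexins and pannexins was not tested. In bulk RNA, fewer cells of a type and less RNA per cell cannot be told apart.

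Of the 8 genes, 4 passed the filter of at least 1 RPKM in at least 3 of the 6 libraries: Gja1, Gjc1, Panx1 and Panx3. Gja1, Panx1 and Panx3 were called higher in osteoblasts, by 4.81-fold, 18.5-fold and 17.5-fold, and Gjc1 was not called. That count of 3 has to be read against a high background. Of 11218 tested genes, 69.0% were called in either direction, 55.5% as higher in osteoblasts and 13.5% as higher in chondrocytes. The median log2 difference was 2.49 over the 4 genes and 0.43 over all tested genes. Panx1 passed the filter through its osteoblast libraries alone, so it could not have passed without differing. The 4 genes below the filter, Gja4, Gjb2, Gjb6 and Panx2, stayed under 1 RPKM in all 6 libraries and are given from a fit with no filter. In that fit 3 of the 8 genes were called higher in osteoblasts, beside 41.9% of 17938 genes, and Panx2 was called higher in chondrocytes, beside 11.0%.

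**Figure D1:**
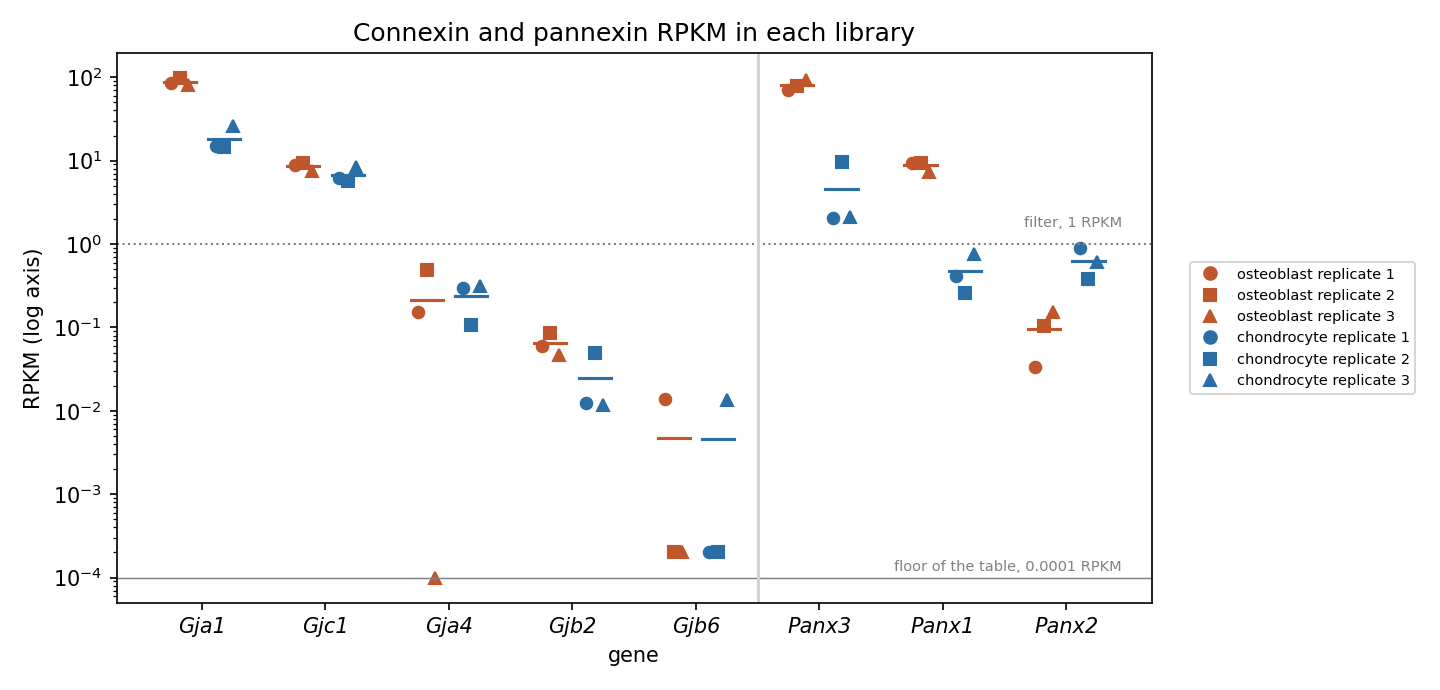
RPKM of the 8 genes on a log axis, with 1 point per library (circle, square and triangle for replicates 1, 2 and 3; brown for osteoblasts, blue for chondrocytes) and bars at group means. The dotted line marks 1 RPKM; Gja1, Panx1 and Panx3 have every osteoblast point above every chondrocyte point, Panx2 has the reverse, and points at the bottom are libraries without reads, listed at 0.0001 RPKM per transcript.

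Gja1 encodes Cx43, the subunit of most gap junctions between osteoblasts. It stood at 86.5, 98.1 and 81.2 RPKM in osteoblast replicates 1 to 3, and at 14.9, 14.6 and 25.8 RPKM in chondrocyte replicates 1 to 3. The lowest osteoblast library lay far above the highest chondrocyte library, and chondrocyte replicate 3 was the highest of its group. The osteoblast mean was 88.6 ± 8.62 RPKM and the chondrocyte mean 18.4 ± 6.37 RPKM (SD, n = 3 each), a log2 difference of 2.25 with a standard error of 0.21 and a limma adjusted p of 0.000101. By size of log2 difference Gja1 ranked 329 of the 11218 tested genes, counted from the highest in osteoblasts.

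The 250 bases before the Gja1 start (chr10:56377050-56377299, plus strand, GRCm38.p6, from RefSeq) are shown because Gja1 is the connexin with the highest level in both cell types. Capitals mark the 1 match, 19 bases before the start, to the AP-1 motif TGANTCA. Both strands were searched.
Gja1: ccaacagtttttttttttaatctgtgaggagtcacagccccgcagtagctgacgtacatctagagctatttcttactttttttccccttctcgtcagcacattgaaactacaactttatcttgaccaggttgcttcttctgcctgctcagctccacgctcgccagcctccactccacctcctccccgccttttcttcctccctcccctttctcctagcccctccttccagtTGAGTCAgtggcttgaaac
AP-1 is the Fos and Jun family of transcription factors. The motif occurs in 6.75% of 32851 mouse windows of the same length, and the window has 50% G and C. The RUNX motif TGTGGT (14% of windows), the homeodomain core TAATTA (4.84%), the GC box GGGCGG (32.7%), the TATA box TATAAA (12.4%) and the CCAAT box (33.8%) have no match in these letters.

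Gjc1 encodes Cx45, a connexin of many tissues that osteoblasts make next to Cx43. Its values were 8.80, 9.48 and 7.51 RPKM in osteoblasts and 6.18, 5.66 and 8.37 RPKM in chondrocytes, replicates 1 to 3 each. Chondrocyte replicate 3 was above osteoblast replicate 3, so the groups overlapped. The means were 8.60 ± 0.997 and 6.73 ± 1.44 RPKM (SD, n = 3 each), a 1.28-fold ratio with a log2 difference of 0.32, a standard error of 0.15 and a limma adjusted p of 0.0949. That difference changed sign with the scaling of the libraries, to -0.07 under median-of-ratios scaling, which moved the median of all genes by -0.37. Without chondrocyte replicate 3 it was called, at 0.47 with a limma adjusted p of 0.0142.

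Gjc1 was the only one of the 4 tested genes with several transcripts in the table. The transcript of 2314 bases, the longest of 3, held 4.50%, 10.1% and 3.83% of Gjc1 RPKM in osteoblasts and 17.4%, 20.9% and 12.2% in chondrocytes. All 3 chondrocyte libraries lay above all 3 osteoblast libraries in this share. The shortest transcript, of 1890 bases, held 16.4% ± 6.78 in osteoblasts and 10.4% ± 4.35 in chondrocytes (SD, n = 3 each), with overlap. A transcript of 1903 bases carried most of Gjc1 in both, 77.5% ± 7.42 and 72.8% ± 0.107 (SD, n = 3 each). Its share was 86.1%, 73.2% and 73.2% in osteoblasts against 72.9%, 72.7% and 72.8% in chondrocytes, also without overlap. The sources used here do not say how reads were divided between transcripts that share exons. In all, 12 shares, sums and ratios were compared by an exact permutation test, two-sided. With 3 libraries against 3 an exact permutation test cannot go below p = 0.10. This was the value for both the 2314-base and the 1903-base share (adjusted p = 0.133 over the 12).

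The 3 connexins of low level that complete the chosen set, Gja4, Gjb2 and Gjb6, are each known from other cell types. Gja4 encodes Cx37, a connexin of the endothelium of arteries. It stood at 0.154 and 0.492 RPKM in osteoblast replicates 1 and 2, was listed at the floor of 0.0001 RPKM in replicate 3, and stood at 0.2997, 0.106 and 0.314 RPKM in chondrocyte replicates 1 to 3. The groups overlapped, and the fit with no filter gave a log2 difference of -0.04 with a limma adjusted p of 0.822. Osteoblast replicate 2, the highest library for Gja4, also had the highest Pecam1 (0.741 RPKM), Cdh5 (0.825 RPKM) and Cldn5 (0.209 RPKM), all endothelial, among osteoblasts. Osteoblast replicate 3, with no Gja4 read, had the lowest (0.0897, 0.204 and 0.0001 RPKM). Of the 7 endothelial markers, 6 were highest among osteoblasts in replicate 2 and 5 lowest in replicate 3. Vwf went the other way, at 0.0490, 0.0404 and 0.0671 RPKM in osteoblast replicates 1 to 3, and Tek was lowest in replicate 1, at 0.0992, 0.147 and 0.119 RPKM. In chondrocytes Pecam1, Cdh5 and Cldn5 were at 0.461 to 2.17 RPKM. None of the 7 endothelial markers passed the filter, and their sums were 0.671 to 2.39 RPKM in osteoblasts and 2.67 to 5.94 RPKM in chondrocytes. Their part in Gja4 was not tested.

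Gjb2 and Gjb6 encode Cx26 and Cx30, which pair in the inner ear and in epithelia. Gjb2 had 0.0600, 0.0864 and 0.0463 RPKM in osteoblasts and 0.0125, 0.0495 and 0.0117 RPKM in chondrocytes, from an estimated 7 reads at most. Chondrocyte replicate 2 was above osteoblast replicate 3, and the limma adjusted p was 0.0829 with no filter (0.0338 without chondrocyte replicate 2). Gjb6 had about 1 read in osteoblast replicate 1 (0.0138 RPKM) and about 1 in chondrocyte replicate 3 (0.0133 RPKM), and no read in the other 4 libraries. A limit of 3 reads corresponds to 0.0397 to 0.0527 RPKM of Gjb6, so a difference below that could not be detected at this depth. The 8 epithelial markers summed to 0.729 to 1.01 RPKM in osteoblasts and 0.206 to 0.373 RPKM in chondrocytes. Krt14, which defines the basal epidermis, was at most 0.0224 RPKM and at the floor in all 3 chondrocyte libraries. The highest osteoblast means were those of Epcam (0.485 against 0.0805 RPKM in chondrocytes) and Cdh1 (0.214 against 0.00893 RPKM). Krt8 and Krt18 had the higher mean in chondrocytes, at 0.102 and 0.0350 RPKM against 0.0123 and 0.00891 RPKM in osteoblasts. Krt15 and Trp63 were nearly equal in the groups. The part of epithelial cells in Gjb2 was not tested.

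Among the 15 connexins outside the chosen set none reached the filter, and Gjb1, Gjd2 and Gjd4 were at the floor in all 6 libraries. The other 12 were fitted with no filter, where 4 were called higher in osteoblasts and 2 in chondrocytes. Over all 17938 genes of that fit the shares were 41.9% and 11.0%, so these counts do not set the 12 apart. Gjd3 averaged 0.655 RPKM in osteoblasts and 0.0341 RPKM in chondrocytes (log2 difference 0.67, limma adjusted p = 0.000814). Gja3, a connexin of the lens, was called at a log2 difference of 0.07 (limma adjusted p = 0.0368) and lost its call in 5 of 10 alternatives. Gjc3 was the highest connexin in chondrocytes after Gja1 and Gjc1. It had 0.719, 0.684 and 0.364 RPKM in chondrocyte replicates 1 to 3, against 0.0001, 0.00853 and 0.0106 RPKM in osteoblasts, where it rested on about 1 read or none (log2 difference -0.65, limma adjusted p = 0.00136). Gja6 was also higher in chondrocytes, at 0.110 against 0.0255 RPKM (-0.11, limma adjusted p = 0.00456). This call rested on an estimated 5.99 to 9.99 reads per chondrocyte library and 2.00 at most per osteoblast library. Gjc3 encodes Cx29, known from myelinating glia, and the glial gene Sox10 was at 0.132, 0.875 and 0.277 RPKM in chondrocytes and at most 0.109 RPKM in osteoblasts. Chondrocyte replicate 2, the highest for Sox10, was not the highest for Gjc3. The 9 neuronal and glial markers together summed to 7.80 to 9.99 RPKM in osteoblasts and 1.66 to 3.79 RPKM in chondrocytes, most of the former from Tubb3. The part of glial cells in Gjc3 was not tested.

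Summed over all 20 connexins, RPKM was 97.2, 109 and 90.0 in osteoblasts and 22.4, 21.3 and 35.2 in chondrocytes. Gja1 made up 89.1%, 89.7% and 90.2% of that sum in osteoblasts and 66.5%, 68.5% and 73.2% in chondrocytes. The groups did not overlap, and the shares were 89.7% ± 0.593 and 69.4% ± 3.41 (SD, n = 3 each; exact permutation p = 0.10, adjusted p = 0.133 over 12 comparisons). Gjc1 made up the counterpart, 9.05%, 8.67% and 8.35% in osteoblasts against 27.6%, 26.5% and 23.8% in chondrocytes. The 18 connexins other than these together held 1.41% to 1.90% in osteoblasts and 3.05% to 5.84% in chondrocytes. A share within a library does not change when the library is rescaled, so this contrast between Gja1 and Gjc1 holds under each of the 3 scalings that multiply whole libraries.

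**Figure D2:**
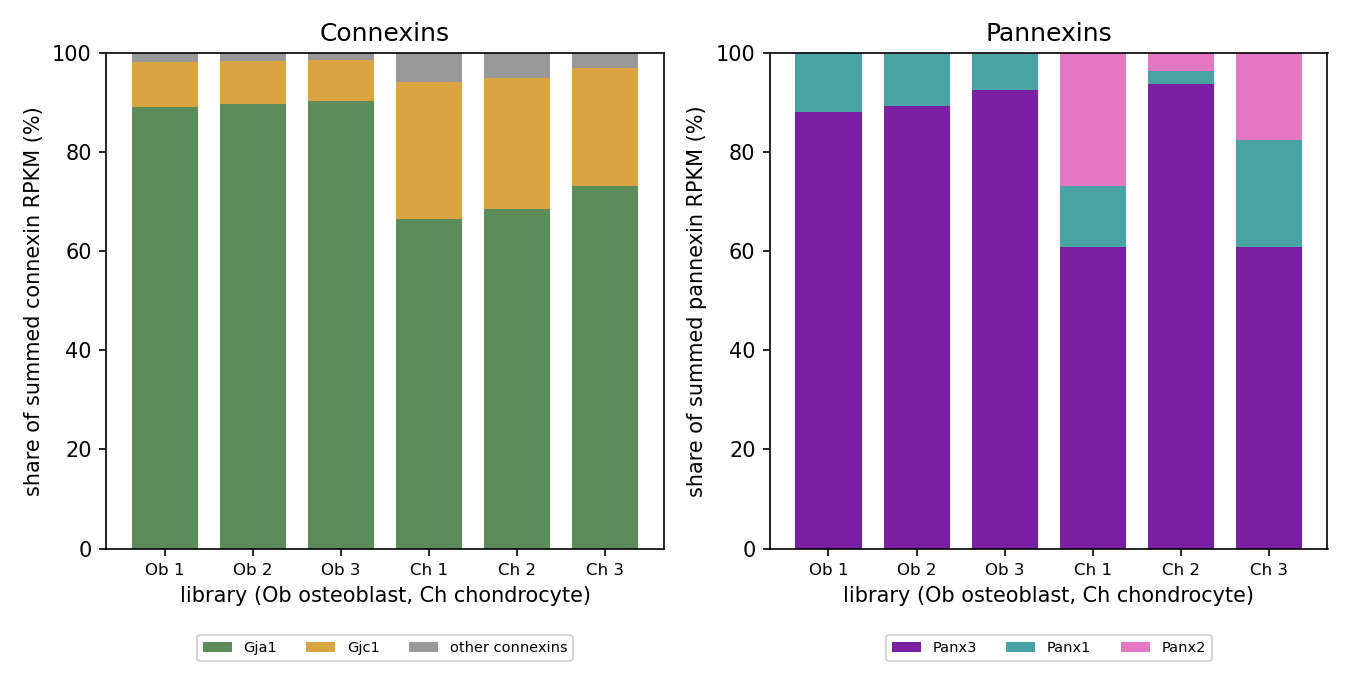
Share of each gene in the summed RPKM of the 20 connexins (left, %) and of the 3 pannexins (right, %), 1 bar per library, with Ob for osteoblast and Ch for chondrocyte replicates 1 to 3. Gja1 fills 89.1% to 90.2% of the osteoblast connexin bars and 66.5% to 73.2% of the chondrocyte ones; Panx2 is visible only in chondrocytes, where it ranges from 3.70% to 26.7%.

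Panx3 encodes the pannexin of cartilage and bone, a channel for ATP release at the surface and for calcium in the endoplasmic reticulum. It stood at 69.9, 79.6 and 93.3 RPKM in osteoblast replicates 1 to 3, and at 2.04, 9.70 and 2.10 RPKM in chondrocyte replicates 1 to 3. All osteoblast libraries were far above all chondrocyte libraries, and chondrocyte replicate 2 was several times higher than the other chondrocyte libraries. The means were 80.9 ± 11.7 and 4.61 ± 4.40 RPKM (SD, n = 3 each), with a log2 difference of 4.13, a standard error of 0.46, a limma adjusted p of 0.000219 and rank 37 of 11218. Without chondrocyte replicate 2 the ratio of means was 39.1-fold in place of 17.5-fold.

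Chondrocyte replicate 2 also differed from the other chondrocyte libraries in cartilage genes. Col10a1, the collagen of hypertrophic cartilage, was at 19.9, 58.4 and 3.32 RPKM in chondrocyte replicates 1 to 3, and Ihh, the hedgehog signal of prehypertrophic cells, at 1.35, 6.93 and 1.18 RPKM. Matn1, a matrix protein of cartilage, was at 3.12, 46.6 and 3.10 RPKM. Panx3 and these 3 genes were thus all highest in chondrocyte replicate 2. The third marker of the hypertrophic list, Mmp13, was lowest in that library, at 0.356, 0.288 and 0.520 RPKM. Summed, the 3 hypertrophic markers gave 5.03 to 65.6 RPKM in chondrocytes and 92.0 to 155 RPKM in osteoblasts, there nearly all from Mmp13. Of the 9 chondrocyte markers 7 were highest in chondrocyte replicate 2, whereas Sox9 (193, 128 and 109 RPKM) and Comp (1920, 1606 and 1642 RPKM) were highest in replicate 1. Genes of osteoblasts were high in replicate 2 as well. Of the 7 osteoblast markers, 5 had their highest chondrocyte value there, among them Sp7, with the values given above, and Ibsp, at 1.06, 1.85 and 1.07 RPKM. Alpl, the alkaline phosphatase of mineralizing cells, was at 2.09, 3.92 and 2.10 RPKM. Runx2 and Col1a1 were highest in other chondrocyte libraries. The part of hypertrophic cells or of osteoblasts in the Panx3 level was not tested.

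A different library, chondrocyte replicate 3, was highest for Gja1, Gjc1 and Panx1. It was also highest for Col1a1, the collagen of bone, tendon and perichondrium, at 2270, 2259 and 7765 RPKM in chondrocyte replicates 1 to 3, for Tnmd, a tendon gene, at 106, 52.3 and 341 RPKM, and for Postn, at 802, 738 and 2369 RPKM. The 6 perichondrium and tendon markers, of which 2 were called higher in osteoblasts and 3 in chondrocytes, summed to 588 to 1006 RPKM in osteoblasts and 886 to 3058 RPKM in chondrocytes. Without chondrocyte replicate 3 the ratio of means was 6.01-fold in place of 4.81-fold for Gja1 and 26.0-fold in place of 18.5-fold for Panx1. Of those 6 markers 5 were highest in chondrocyte replicate 3, and Prg4, a lubricant of the joint surface, was highest in replicate 1, at 28.2 RPKM against 18.5 RPKM in replicate 3 and a lower value in replicate 2. Markers of other cells were high in replicate 3 too. Of the 7 myeloid and osteoclast markers 6 were highest there among chondrocytes, such as Csf1r at 0.644, 0.528 and 1.73 RPKM and Lyz2 at 0.675, 0.197 and 2.68 RPKM, and so were 6 of the 7 endothelial markers, such as Pecam1 at 1.15, 0.872 and 2.17 RPKM. The part of fibrous tissue, myeloid cells or endothelium in these levels was not tested.

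**Figure D3:**
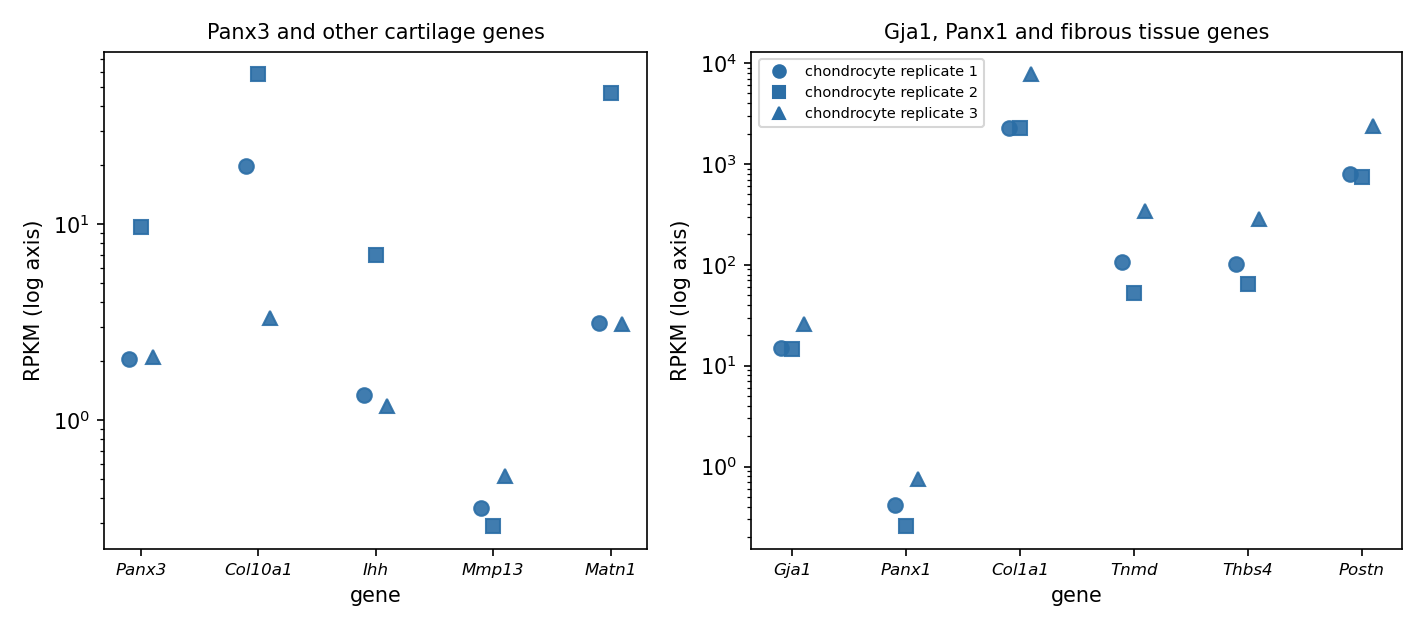
RPKM on log axes in the 3 chondrocyte libraries (circle, square and triangle for replicates 1, 2 and 3): Panx3 beside Col10a1, Ihh, Mmp13 and Matn1 (left), and Gja1 and Panx1 beside Col1a1, Tnmd, Thbs4 and Postn (right). Replicate 2 is highest for all genes on the left except Mmp13, and replicate 3 is highest for all genes on the right.

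Panx1 encodes the widely expressed pannexin, best known for ATP release from stretched, activated or dying cells. It stood at 9.47, 9.44 and 7.38 RPKM in osteoblasts and at 0.415, 0.257 and 0.751 RPKM in chondrocytes, replicates 1 to 3 each, the latter from an estimated 49.6 to 154.6 reads. The groups were far apart, with chondrocyte values all under the filter. The means were 8.76 ± 1.20 and 0.475 ± 0.252 RPKM (SD, n = 3 each), with a log2 difference of 2.73, a standard error of 0.16, a limma adjusted p of 1.08e-05 and rank 177 of 11218. Panx1 is also expressed in myeloid cells, whose marker Csf1r averaged 3.93 RPKM in osteoblasts and 0.968 RPKM in chondrocytes. Csf1r was at 3.96, 3.33 and 4.51 RPKM in osteoblast replicates 1 to 3, highest where Panx1 was lowest. Of the 7 myeloid and osteoclast markers, 6 were highest among osteoblasts in replicate 2 and 1, Csf1r, in replicate 3. Replicate 3, where Panx1 was lowest, was also the lowest osteoblast library for 4 of the 7 markers. The lowest was replicate 1 for 2 of them and replicate 2 for 1. The part of myeloid cells in the Panx1 level was not tested.

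The 250 bases before the Panx1 start (chr9:15045479-15045728, minus strand, GRCm38.p6, from RefSeq) are shown because Panx1, next to Gja1, is the second gene called higher in osteoblasts with an entry in that table. Capitals mark matches to the RUNX motif TGTGGT, 243 and 98 bases before the start, and to the CCAAT box, 201 bases before it. The RUNX match nearer the start is on the opposite strand and reads ACCACA. The CCAAT box, also on that strand, reads ATTGG.
Panx1: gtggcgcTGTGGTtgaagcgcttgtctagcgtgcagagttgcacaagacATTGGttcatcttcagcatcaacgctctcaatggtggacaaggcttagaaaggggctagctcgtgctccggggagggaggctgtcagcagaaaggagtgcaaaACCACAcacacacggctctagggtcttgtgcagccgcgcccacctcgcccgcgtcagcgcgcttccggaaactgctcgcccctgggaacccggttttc
RUNX factors include Runx2, a regulator of osteoblast formation. The RUNX motif occurs in 14% and the CCAAT box in 33.8% of the 32851 mouse windows. Whether any factor binds these matches was not tested. The window has 59.6% G and C. It has no match to the AP-1, homeodomain, GC box or TATA box letters, so the Gja1 and Panx1 windows share none of the 6 motifs searched.

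Panx2, the pannexin known mainly from the nervous system, went the other way from Panx1 and Panx3. It stood at 0.0339, 0.104 and 0.152 RPKM in osteoblasts, from an estimated 3.97 to 13.9 reads, and at 0.897, 0.383 and 0.603 RPKM in chondrocytes, from 43.7 to 102 reads. Every chondrocyte library was above every osteoblast library. The means were 0.0967 ± 0.0594 and 0.628 ± 0.258 RPKM (SD, n = 3 each), 6.49-fold higher in chondrocytes, and the fit with no filter gave a log2 difference of -0.56 with a limma adjusted p of 0.00741. Panx2 kept its direction and its call in all 10 alternatives run with no filter. The neuronal markers Rbfox3, Snap25 and Syt1 were each at 0.0368 RPKM or less in every library.

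As a family the pannexins summed to 79.5, 89.1 and 101 RPKM in osteoblasts and to 3.35, 10.3 and 3.45 RPKM in chondrocytes. Panx3 was the larger part of the sum in all 6 libraries, at 88.0%, 89.3% and 92.5% in osteoblasts and 60.9%, 93.8% and 60.8% in chondrocytes, where replicate 2 stood above every osteoblast library (exact permutation p = 0.40, adjusted p = 0.436). Panx1 held 11.9%, 10.6% and 7.32% against 12.4%, 2.49% and 21.7%, also with overlap. Panx2 held 0.0426%, 0.117% and 0.151% in osteoblasts and 26.7%, 3.70% and 17.5% in chondrocytes, with no overlap (exact permutation p = 0.10, adjusted p = 0.133). In chondrocyte replicates 1 and 2 Panx2 was above Panx1, and in all 3 osteoblast libraries and chondrocyte replicate 3 Panx1 was above Panx2.

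**Figure D4:**
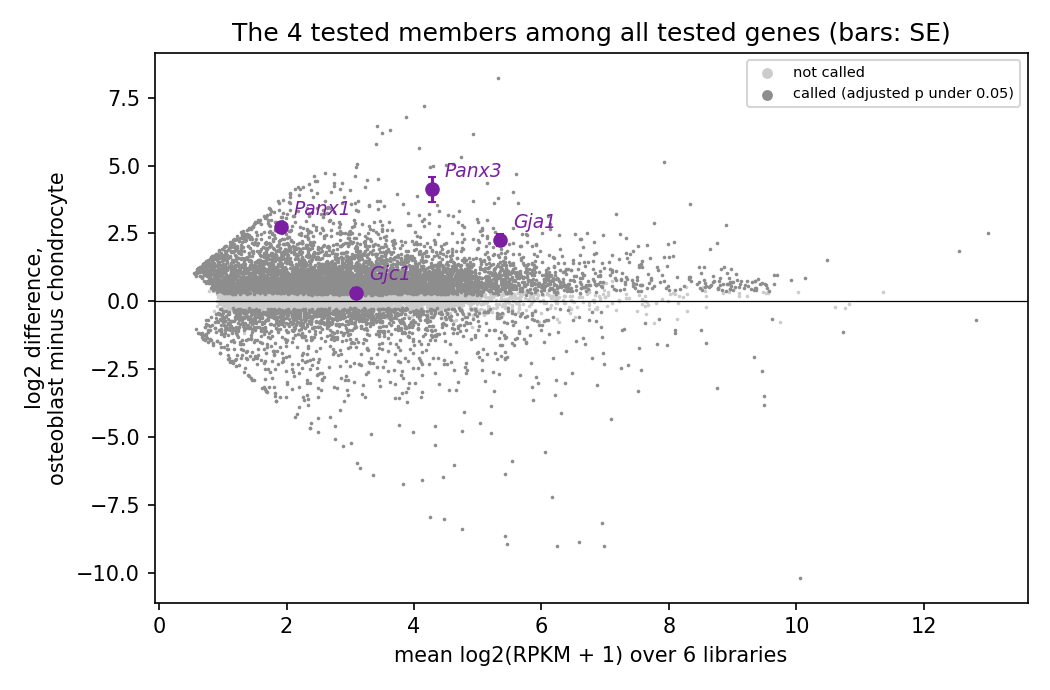
Log2 difference (osteoblast minus chondrocyte) against mean log2(RPKM + 1) for 11218 tested genes, grey where not called and dark grey where called at an adjusted p under 0.05, with Gja1, Gjc1, Panx1 and Panx3 in purple and bars for the standard error. Panx3 at 4.13, Panx1 at 2.73 and Gja1 at 2.25 lie high in the cloud, and Gjc1 at 0.32 lies in its centre.

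By mean RPKM, the order in osteoblasts was Gja1, Panx3, Panx1, Gjc1, Gja4, Panx2, Gjb2 and Gjb6. The ranges of Gja1 and Panx3 overlapped, as did those of Panx1 and Gjc1, and those of Gja4, Panx2 and Gjb2. In chondrocytes the order was Gja1, Gjc1, Panx3, Panx2, Panx1, Gja4, Gjb2 and Gjb6, where Gjc1 overlapped Panx3, Panx2 overlapped Panx1, Panx1 overlapped Gja4, and Gjb2 overlapped Gjb6. Gja1 was thus at the head in both cell types. The ratio of Panx3 to Gja1 RPKM was 0.808, 0.812 and 1.15 in osteoblasts and 0.137, 0.663 and 0.0814 in chondrocytes, so that Panx3 nearly matched Gja1 in osteoblasts and chondrocyte replicate 2 came closest among chondrocytes. The higher level of Gja1, Panx1 and Panx3 in osteoblasts and the call were kept in all 18, 17 and 18 alternatives in which each was tested.

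None of the 8 genes has exons that overlap another gene in GENCODE release 21 on GRCm38. Gjb2 and Gjb6 are direct neighbours on chromosome 14, beside Gja3. Of these 3, Gja3 was called higher in osteoblasts with no filter, and Gjb2 and Gjb6 were not called. Panx1 and Panx3 both lie on chromosome 9 but are not neighbours.

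The tested genes whose profile over the 6 libraries lay closest to each of the 4 tested genes were found by Euclidean distance of centred log2(RPKM + 1) values. For Gja1 they were Prr7 (distance 0.158), Slit2 (0.232) and Robo2 (0.239), and for Panx1 they were Notch3 (0.250), Ephb2 (0.250) and Rac3 (0.269). The nearest to Gjc1 were Sap18 (0.105), Pofut1 (0.120) and Tmem219 (0.127). Panx3 had no gene as close, with Psrc1 at 0.664, Slc13a5 at 1.06 and Irx5 at 1.26. Each profile holds only 6 values in 2 groups, and closeness in it says nothing of shared function.

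Around these channels, genes of 5 lists were counted in the same fit, beside the 55.5% and 13.5% of all tested genes called higher in osteoblasts and in chondrocytes. Of 21 tested genes that encode partners of connexins (scaffolds, kinases and trafficking factors), 14 were higher in osteoblasts and 1 in chondrocytes, with a median log2 difference of 0.54. Under median-of-ratios scaling these counts were 7 and 4, with a median of 0.13, and the shares of all tested genes were 33.6% and 28.3%. Genes that reached 1 RPKM in no chondrocyte library had to be higher in osteoblasts to be tested at all. They were Cdh2 among these partners, P2rx6 among the receptors, Ada, Enpp3, Entpd3 and Slc29a2 among the enzymes and transporters, and Lrrc8b among the other channels, and all 7 were called; no tested gene of these lists reached 1 RPKM in chondrocytes alone. Cdh2, the N-cadherin of adherens junctions near gap junctions, was at 26.7, 27.9 and 33.7 RPKM in osteoblasts and 0.243, 0.307 and 0.976 RPKM in chondrocytes (log2 difference 4.36, limma adjusted p = 3.46e-06). Dbn1, which encodes drebrin, an actin-binding partner of Cx43, averaged 39.8 and 5.21 RPKM (2.80, limma adjusted p = 0.000183), and Nov, whose CCN protein binds Cx43, averaged 10.3 and 2.03 RPKM (1.93, limma adjusted p = 0.00135). The kinase Csnk1d, which phosphorylates Cx43, was at 37.9 and 18.3 RPKM (1.02, limma adjusted p = 0.000208).

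Of the 19 purine receptors, which sense ATP, its products or adenosine, 3 passed the filter. P2rx4, an ATP-gated cation channel, averaged 11.9 RPKM in osteoblasts and 3.75 RPKM in chondrocytes (log2 difference 1.44, limma adjusted p = 2.59e-05). P2rx6 was higher in osteoblasts as well, at 1.35 against 0.189 RPKM (0.98, limma adjusted p = 0.000233). P2rx7, the receptor often described together with Panx1, was the reverse of Panx1, at 1.11, 1.18 and 0.962 RPKM in osteoblasts and 4.34, 3.83 and 2.39 RPKM in chondrocytes (-1.09, limma adjusted p = 0.00108). These 3 calls were the same under median-of-ratios scaling.

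Of 14 tested enzymes and transporters that handle nucleotides and nucleosides outside the cell, 9 were higher in osteoblasts, 4 of them below 1 RPKM in every chondrocyte library, and 3 in chondrocytes, with a median log2 difference of 0.60 (6 and 3, and a median of 0.26, under median-of-ratios scaling). Alpl averaged 255 RPKM in osteoblasts and 2.70 RPKM in chondrocytes (log2 difference 6.15, limma adjusted p = 7.85e-07), and Entpd3, which degrades ATP, averaged 5.73 and 0.0553 RPKM (2.65, limma adjusted p = 1.08e-05). Nt5e, which makes adenosine from AMP, was higher in chondrocytes, at 28.9 against 9.01 RPKM (-1.59, limma adjusted p = 3.26e-05). So was the adenosine transporter Slc29a1, at 90.2 against 31.2 RPKM (-1.50, limma adjusted p = 2.70e-05). Enpp1, which makes pyrophosphate from ATP, was at 46.3 and 48.9 RPKM and was not called (-0.07, limma adjusted p = 0.674). It was called higher in chondrocytes under upper-quartile scaling (-0.52, limma adjusted p = 0.0430) and quantile normalization (-0.50, limma adjusted p = 0.0368).

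Other large-pore and stretch-gated channels were divided, with 5 of 13 tested genes higher in osteoblasts, 1 of them below 1 RPKM in every chondrocyte library, and 5 in chondrocytes, and a median log2 difference of 0.10 (2 and 6, and a median of -0.34, under median-of-ratios scaling). Trpv4, a stretch- and osmosensitive channel of chondrocytes, averaged 44.3 RPKM in chondrocytes and 9.10 RPKM in osteoblasts (log2 difference -2.09, limma adjusted p = 0.00043). Piezo2 was at 8.88 and 2.66 RPKM (-1.35, limma adjusted p = 0.00699), and Lrrc8c, a subunit of volume-regulated anion channels, at 13.8 and 7.65 RPKM (-0.77, limma adjusted p = 0.000857). Vdac1, the pore of the outer mitochondrial membrane, was higher in osteoblasts, at 73.5 against 28.0 RPKM (1.38, limma adjusted p = 0.000171).

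Of 12 tested genes of calcium release from the endoplasmic reticulum, 7 were higher in osteoblasts and 3 in chondrocytes, with a median log2 difference of 0.76 (6 and 3, and a median of 0.31, under median-of-ratios scaling). Itpr3, a receptor for the second messenger that crosses gap junctions and opens calcium stores, averaged 17.6 RPKM in chondrocytes and 2.49 RPKM in osteoblasts (log2 difference -2.40, limma adjusted p = 1.66e-05). The store-operated channel genes went opposite ways: Orai1 was higher in chondrocytes, at 16.7 against 4.23 RPKM (-1.74, limma adjusted p = 5.04e-05), and Orai2 in osteoblasts, at 15.3 against 2.72 RPKM (2.14, limma adjusted p = 1.19e-05). Calm3, a calmodulin gene, averaged 93.5 RPKM in osteoblasts and 34.8 RPKM in chondrocytes (1.40, limma adjusted p = 0.000213).

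**Figure D5:**
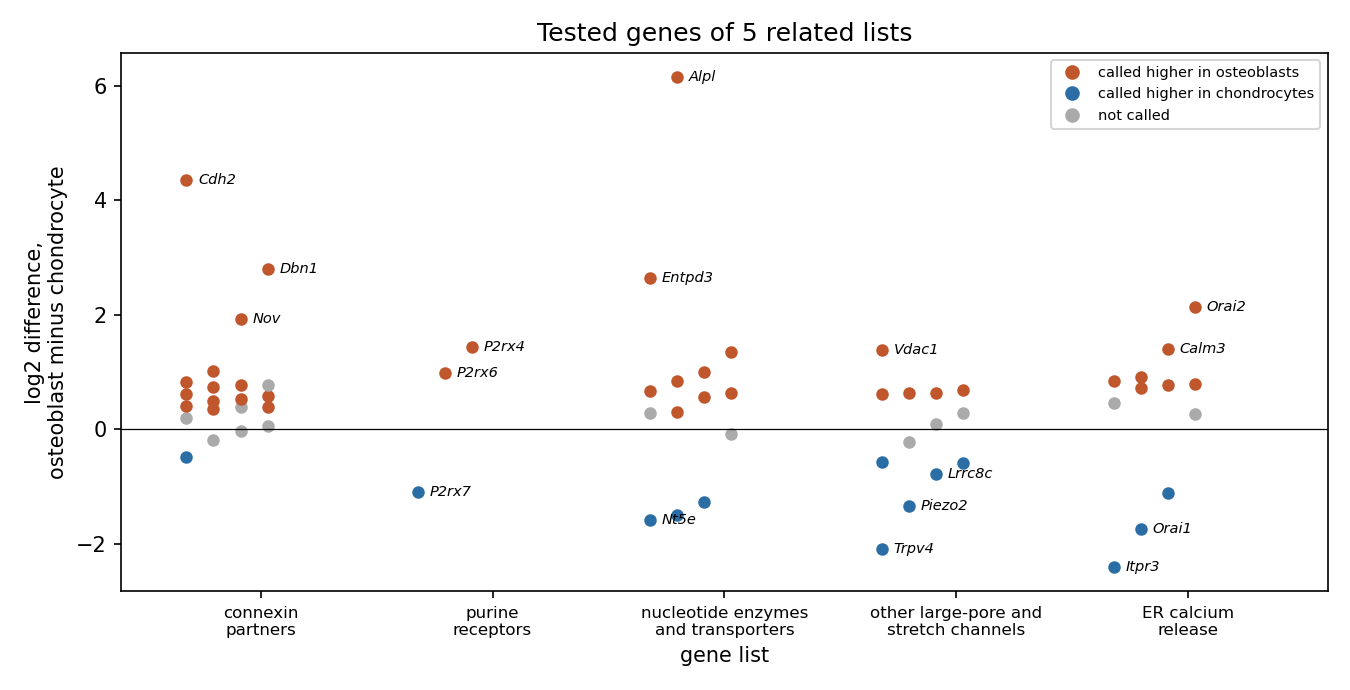
Log2 difference (osteoblast minus chondrocyte) of every tested gene in 5 lists, 1 point per gene, brown where called higher in osteoblasts, blue where called higher in chondrocytes and grey where not called. Cdh2 at 4.36 and Alpl at 6.15 are the highest points of their lists, and Itpr3 at -2.40 is the lowest point of the plot.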

How the data were processed

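RNA-seq of 6 libraries was deposited by the authors as 1 table of RPKM for 31055 transcripts, and all 6 value columns were used, each matched to its sample by name. The submitters' processing notes list TopHat2 2.0.8, and mm9 as genome build; the sources used here do not give the counting program. A constant of 0.0001 is contained in every deposited RPKM value.

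For each symbol the RPKM of its transcripts was added up. A gene was tested if 3 or more libraries had RPKM of 1 or higher. The two-sided test was limma 3.58.1 (R 4.3.3, trend and robust moderation) on log2(RPKM + 1) values, and the call threshold was 0.05 for p adjusted by Benjamini-Hochberg over all 11218 genes. Library totals were estimated from low values, which step by whole reads: 58.9% to 60.7% of values under 20 reads were within 0.05 of a whole number (10% by chance). These totals were fitted to the same values. RPKM carries no counts, so read numbers are estimates. Alternatives were 2 pseudocounts, no filter and a stricter one, 4 scalings, moderation without trend, library weights, 1 transcript per gene, a replicate block and each library left out.

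The members, gene lists, markers and tests were chosen with earlier results of these data known. The rule for named genes takes all 8 members, up to 4 called genes per list by size of log2 difference, the uncalled gene of highest RPKM, and the 3 nearest profiles; not every gene it takes is named. Matn1, Thbs4 and other markers were named beside a member's values. Promoter windows come from RefSeq on GRCm38.p6 (5 of the 8 members matched); GENCODE release 21 supplied lengths and exon overlap only. Pearson's r of log2 values over the tested genes, which are not independent replicates, was 0.992 to 0.994 between osteoblast libraries, 0.961 to 0.986 between chondrocyte libraries and 0.777 to 0.820 across the groups. Some genes of the connexin family are counted but not reported here by name.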

Additional observations from a re-analysis of the deposited data

How the results depend on the processing

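The main limits are the 3 libraries per group, the design in which site, sorting and enzyme go with cell type, and the scaling. With no rescaling 80.5% of 7736 calls were higher in osteoblasts, against 54.2% under median-of-ratios, 53.8% under upper-quartile, 72.9% under equal-sum scaling and 51.0% under quantile normalization. At this depth levels under about 0.05 RPKM rest on a few reads.

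Gja1 and Panx3 kept direction and call under all 18 alternatives, with log2 differences of 1.81 to 2.50 and 3.24 to 4.73, and Panx1 under the 17 in which it was tested, with 1.33 to 4.03. The filter of mean RPKM of at least 5 left 4977 calls. With no filter, 1 member was called higher in chondrocytes, and 4 and 2 of the other connexins were called higher in osteoblasts and in chondrocytes. The shares of all 17938 genes in that fit were 41.9% and 11.0%. Of the genes in the 5 related lists, 37 were called higher in osteoblasts, against 23 under median-of-ratios scaling, 23 under upper-quartile scaling and 24 under quantile normalization. Their calls in chondrocytes went from 13 to 17, 17 and 18. All tested genes shifted too, from 6224 to 3765, 3706 and 3597 of 11218 called higher in osteoblasts. Those called higher in chondrocytes went from 1512 to 3178, 3184 and 3456. The Gja1 share of connexin RPKM differed by 20.2 percentage points, and by 16.8 with only the transcript of highest mean. The log2 difference of Gjc1 turned to -0.0717, -0.0767 and -0.0865 under median-of-ratios, upper-quartile and quantile normalization, and was called at 0.39 with library weights (limma adjusted p = 0.00574). That of Enpp1 ranged from -0.199 to 0.0289 when 1 library was left out, and was called at -0.52 under upper-quartile scaling and -0.50 under quantile normalization (limma adjusted p = 0.0430 and 0.0368). With no filter, that of Gja4 turned to 0.0864 without osteoblast replicate 3, and that of Gjb6 to -0.0015 under median-of-ratios scaling, -0.0063 without osteoblast replicate 1 and -0.0029 without chondrocyte replicate 1 or 2. The cause of these changes was not tested. The settings with no filter for genes below it were chosen after seeing the data.

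Replicate numbers are shared by the groups, but same-numbered libraries deviated together at r of 0.08, 0.01 and -0.16, and 0 of 3 numbers correlated best with itself. With the number as a replicate block 7268 genes were called in place of 7736, and Gja1, Panx1 and Panx3 kept their calls.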
